A study of Drosophila melanogaster with 2 samples.

Results

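Heat shock genes mostly encode chaperones and their regulator, although Hsp67Bb, described below, encodes a rhodanese-like protein. Among the 13945 protein-coding genes annotated on the chromosome arms of Drosophila melanogaster, 10 heat shock genes were examined. They were Hsp22, Hsp23, Hsp26, Hsp27, Hsp67Ba, Hsp67Bb and Hsp67Bc, which form the 67B cluster on 3L, the mitochondrial chaperonin gene Hsp60A, the Hsp90 gene Hsp83, and Hsf, which encodes the heat shock transcription factor. The set was chosen by name with the peaks of the conservative list already known, so the positions and signals of those peaks are a description here and carry no test. The measurement was chromatin immunoprecipitation followed by sequencing (ChIP-seq) of a sisA-eGFP fusion protein. SisA is a basic leucine zipper (bZIP) protein encoded on the X chromosome, known as an early zygotic signal that reads the number of X chromosomes in sex determination. Chromatin came from whole embryos aged 0 to 18 h of transgenic flies of a strain named sisA-GFP, was sonicated to fragments of 200 to 800 bp, and was precipitated with an antibody to GFP, although the antibody field of the labels names sisA. There was 1 group of 2 biological replicates, so no condition was compared. The labels do not give the sex of the embryos, the cells that make the fusion protein, or whether the replicates came from separate cages, and an age range this wide pools most of embryonic development. The height of a peak could not be set against a background, since neither control libraries nor reads entered the work, and the depth of each replicate is unknown. A like signal can come from strong binding in few cells or weak binding in many, which cannot be told apart in whole embryos.

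Small heat shock proteins carry an alpha-crystallin domain and hold unfolding proteins in a state from which ATP-driven chaperones can refold them. In flies their genes are switched on by heat through Hsf, which binds arrays of the short word GAA in alternating orientation called heat shock elements, with GAGA factor keeping the promoters open. Several of them, together with Hsp83, are also transcribed without heat in the germ line and during development, in part under control of ecdysone.

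Of the 10 genes 6 had a summit of the conservative list within 1000 bp of an annotated transcription start site (TSS), and are called occupied. They were Hsp22, Hsp26, Hsp27, Hsp67Bb, Hsp60A and Hsp83. Hsp23, Hsp67Ba, Hsp67Bc and Hsf were not. The conservative list holds the peaks that passed the authors' irreproducible discovery rate (IDR) threshold with both replicates, and 21.1% of all protein-coding genes were occupied by the same rule. The strongest summit by far was that of Hsp27, with a signal of 1131 against a median of 126.9 for the list, and Hsp83 had its strongest summit inside its intron and not at its start. The sequences that carry these results come from the RefSeq copy of dm6 and are printed as 60 bp to each side of the summit, with a shorter stretch at the Hsp83 start, which lies in an annotated 5' UTR. Capitals mark heat shock element pairs (GAANNTTC or TTCNNGAA), GAGAG, and the word ATTTGCAT, which was picked out after these windows had been read.
Hsp27 upstream summit, the strongest of the set, chr3L:9383853-9383973, plus strand: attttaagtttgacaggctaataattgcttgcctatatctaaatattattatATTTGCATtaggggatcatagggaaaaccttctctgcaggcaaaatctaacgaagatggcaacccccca
Hsp26 upstream summit, which holds a heat shock element pair and GAGAG runs, chr3L:9377468-9377588, plus strand: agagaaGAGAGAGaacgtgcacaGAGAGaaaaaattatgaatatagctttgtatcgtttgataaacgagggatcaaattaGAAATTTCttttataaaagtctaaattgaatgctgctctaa
Hsp83 intron summit, stronger than the peak at the Hsp83 start, chr3L:3194211-3194331, plus strand: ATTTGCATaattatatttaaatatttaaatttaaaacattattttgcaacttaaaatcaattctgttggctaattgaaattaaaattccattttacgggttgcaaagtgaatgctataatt
Hsp60A upstream summit, beside the start of a mitochondrial chaperonin gene, chrX:11108258-11108378, plus strand: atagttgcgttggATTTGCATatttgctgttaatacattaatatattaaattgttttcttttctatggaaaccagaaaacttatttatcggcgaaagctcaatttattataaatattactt
Hsp83 start, heat shock element pair beside the summit, chr3L:3193137-3193166, plus strand: agaagcctctaGAAGTTTCtagagacttcc

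The 67B cluster spans 14184 bp, from 9371511 to 9385694 on 3L in dm6, and holds 7 genes of the set among 10 annotated ones. The other 3 are CG4461, a further small heat shock protein gene, the noncoding asRNA:CR43481 and the pseudogene CR43483. The conservative list had 3 summits in it, or 2.12 per 10 kb against 0.383 per 10 kb over the arms. These rates are per length of sequence and not per gene, and the cluster packs 10 annotated genes into 14184 bp. Summits per gene were not compared. The 3 summits lay 4021 and 6385 bp apart. Each sat beside a different member: 1 between the starts of Hsp22, 1 upstream of Hsp26 and 1 upstream of Hsp27. All 3 were found in the thresholded list of each replicate alone.

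**Figure D1:**
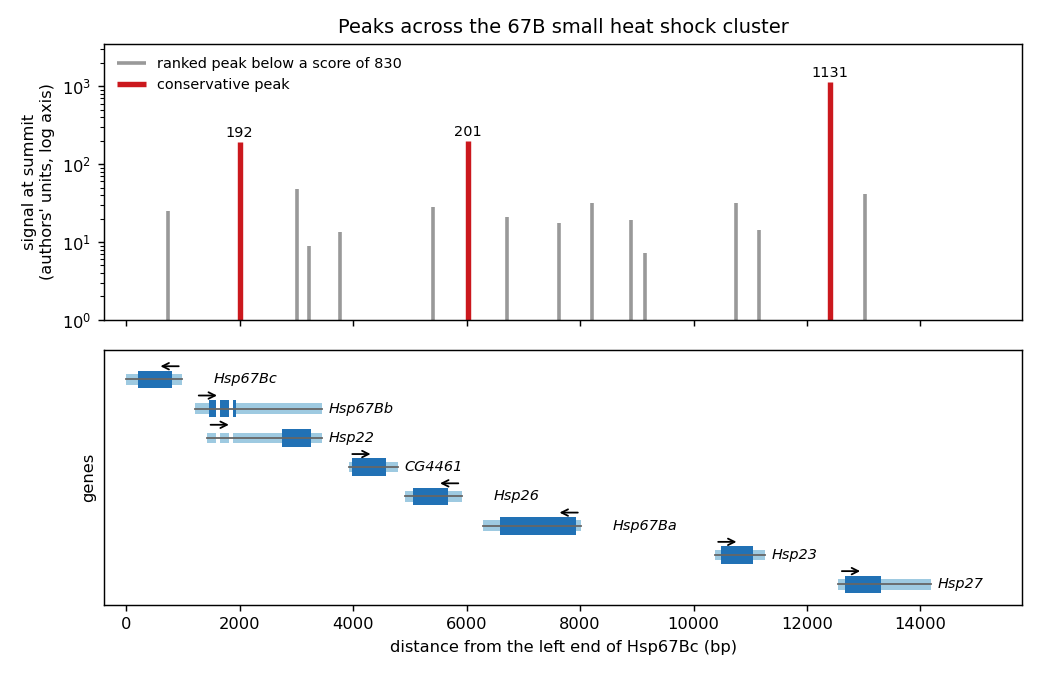
Signal of each peak across the 67B cluster, in the authors' units on a log axis, against the distance in bp from the left end of Hsp67Bc. Red lines are the 3 conservative peaks, with signals of 191.7, 200.8 and 1131 from left to right, and grey lines are the 13 ranked peaks below a score of 830. Below, dark blocks are coding sequence, light blocks are other exon sequence and arrows show the direction of transcription.

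Hsp27 (FBgn0001226, 3L from 9384063 to 9385694, plus strand) encodes a small heat shock protein found mainly in the nucleus. Its summit, at 9383913, lay 150 bp upstream of its only annotated TSS, in intergenic sequence. The peak ran from 9383766 to 9384062, had a signal of 1131 and ranked 63 of 5202 peaks. In replicate 1 alone the signal was 579.5 (rank 68 of 4751), and in replicate 2 alone it was 549.8 (rank 52 of 3485). Both replicates thus placed it near the top of their lists, and each of their summits was 2 bp from that of the conservative list. Among the 2940 occupied protein-coding genes, ordered by their strongest summit, Hsp27 stood at rank 78. The next gene to the left, Hsp23, ends before this summit and starts 2031 bp from it.

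Hsp26 (FBgn0001225, 3L from 9376418 to 9377427, minus strand) encodes a cytosolic small heat shock protein. A summit at 9377528 lay 101 bp upstream of its outer TSS at 9377427 and 153 bp upstream of its inner TSS at 9377375. The peak, from 9377358 to 9377697, had a signal of 200.8, a rank of 1473 and a percentile of 71.7, which is the share of the list's peaks that were weaker. Replicate 1 alone gave a signal of 126.3 (rank 1267) and replicate 2 alone gave 79.02 (rank 1784). The summit was thus present in both lists but stood higher in that of replicate 1, at percentile 73.4 against 48.8. It also lay 632 bp upstream of a start of asRNA:CR43481, which is transcribed the opposite way.

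Hsp22 (FBgn0001223, 3L from 9372931 to 9374964, plus strand) encodes a small heat shock protein of the mitochondrial matrix. Hsp67Bb (FBgn0001228, from 9372722 to 9374964), listed as CG4456 in the annotation, overlaps it on the same strand and encodes a rhodanese-like protein with no alpha-crystallin domain. They share a single summit at 9373507. Its peak spans 9373337 to 9373676 and had a signal of 191.7 and a rank of 1583. Replicate 1 alone gave a signal of 111.0 (rank 1510), and replicate 2 alone gave 78.66 (rank 1788). Both replicate summits fell within 5 bp of the conservative one. The position was 490 bp upstream of the Hsp22 TSS at 9373997 and 576 bp downstream of the TSS at 9372931 that both genes share. It is annotated as 3' UTR of Hsp67Bb and 5' UTR of the longer Hsp22 transcript, so the data do not assign this summit to 1 of the genes.

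Hsp23, Hsp67Ba and Hsp67Bc are the members of the cluster with no conservative summit within 1000 bp. Hsp23 (FBgn0001224, from 9381882 to 9382765, plus strand) encodes another cytosolic small heat shock protein, and its nearest conservative summit was that of Hsp27, 2031 bp downstream of the Hsp23 start. Hsp67Ba (FBgn0001227, from 9377802 to 9379534, minus strand) encodes an alpha-crystallin protein, and its nearest summit was that of Hsp26, 2006 bp downstream of its start. Hsp67Bc (FBgn0001229, from 9371511 to 9372497, minus strand) encodes a small heat shock protein known to act with the cochaperone Starvin in autophagy. It was just outside the distance limit, since the Hsp22 summit lay 1010 bp upstream of its start. The occupied member nearest to the limit from inside was Hsp67Bb, at 576 bp.

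Below the IDR threshold, the ranked list behind the conservative list holds 119200 peaks down to a score of 28, where a score of 830 stands for an IDR of 0.01 and 1000 is the highest. That list put at least 1 summit within 1000 bp of a TSS for 81.5% of all protein-coding genes, so a ranked peak beside a gene sets it apart from few others. Near the Hsp23 start it had a summit 377 bp downstream, with a signal of 31.52 and a score of 127. In the ranked lists of the replicates the nearest one was 369 bp downstream with a signal of 12.61 in replicate 1 and 261 bp downstream with a signal of 17.63 in replicate 2. For Hsp67Ba the nearest was 188 bp upstream of the start, with a signal of 31.28 and a score of 70. Replicate 1 had a signal of 7.323 at 212 bp upstream, and replicate 2 had 18.46 at 188 bp upstream. All of these lie far below the conservative peaks of the cluster.

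The ranked summit nearest to Hsp67Bc was 253 bp downstream of its start, with a signal of 25.36 and a score of 58. In replicate 2 the nearest was 97 bp downstream with a signal of 8.162 and a score of 64, and a stronger one lay 316 bp downstream with a signal of 22.47. Replicate 1 had none within 1000 bp. In the whole cluster 13 of the 16 ranked peaks fell below the threshold, with signals from 7.298 to 47.58 and scores up to 275. Over the whole ranked list, 5202 of 119200 peaks were conservative, so most fell below everywhere. In the cluster the signals of the 13 did not overlap those of the 3 conservative peaks, the weakest of which was 191.7. Over the whole list the signals do overlap, since conservative peaks go down to 2.035. The authors' threshold made these groups, so the gap in the cluster is a description and carries no test.

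Hsp83 (FBgn0001233, 3L from 3192969 to 3197059, plus strand) encodes the cytosolic Hsp90 of the fly, a chaperone of kinases and receptors. It has an outer TSS at 3192969 and an inner TSS at 3193216, and 3 conservative summits lay in the gene. The first, at 3193112, lay 143 bp downstream of the outer and 104 bp upstream of the inner TSS, in the 5' UTR of the longer transcript. Its peak, from 3192942 to 3193281, had a signal of 97.95 and a rank of 3448, below the median of the list. Replicate 1 alone called it with a signal of 72.8 (rank 2615). Replicate 2 had a summit 49 bp away in its ranked list only, with a signal of 34.37 and a score of 58. The start peak of Hsp83 was therefore called in replicate 1 alone, and the count of occupied members in the list of replicate 2 is 5 for that reason. It also lay 621 bp upstream of the start of CG14965, which is transcribed away from Hsp83.

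The second Hsp83 summit, at 3193325, lay 109 bp downstream of the inner TSS, with a signal of 10.46 and a rank of 5134. No summit of any replicate list lay within 100 bp of it, and its peak overlapped the first by 127 bp. In the ranked list it stood at 96987 of 119200 by signal although its score was 1000. Peaks of this kind were few, since 102 of the 5202 conservative peaks (1.96%) had a signal under 20. Of those 102, 98 (96.1%) overlapped another conservative peak, and the share of all 5202 that do so was not counted. The summit adds nothing to the count of occupied members, as the first summit already places Hsp83 among them.

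The third Hsp83 summit, at 3194271, lay in the intron, 1055 bp downstream of the inner TSS and so just beyond the limit of 1000 bp. Its peak, from 3194168 to 3194355, was 188 bp wide with a signal of 394.3 and a rank of 522. Replicate 1 alone gave a signal of 221.4 (rank 503), and replicate 2 alone gave 178.4 (rank 527). Both replicates held this intron summit, 6 and 18 bp from the conservative one, and in both it was stronger than the summit at the start. Downstream of the gene a further summit at 3199159, with a signal of 151.8, lay 112 bp upstream of the start of CG32276 and 69 bp inside gry.

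**Figure D2:**
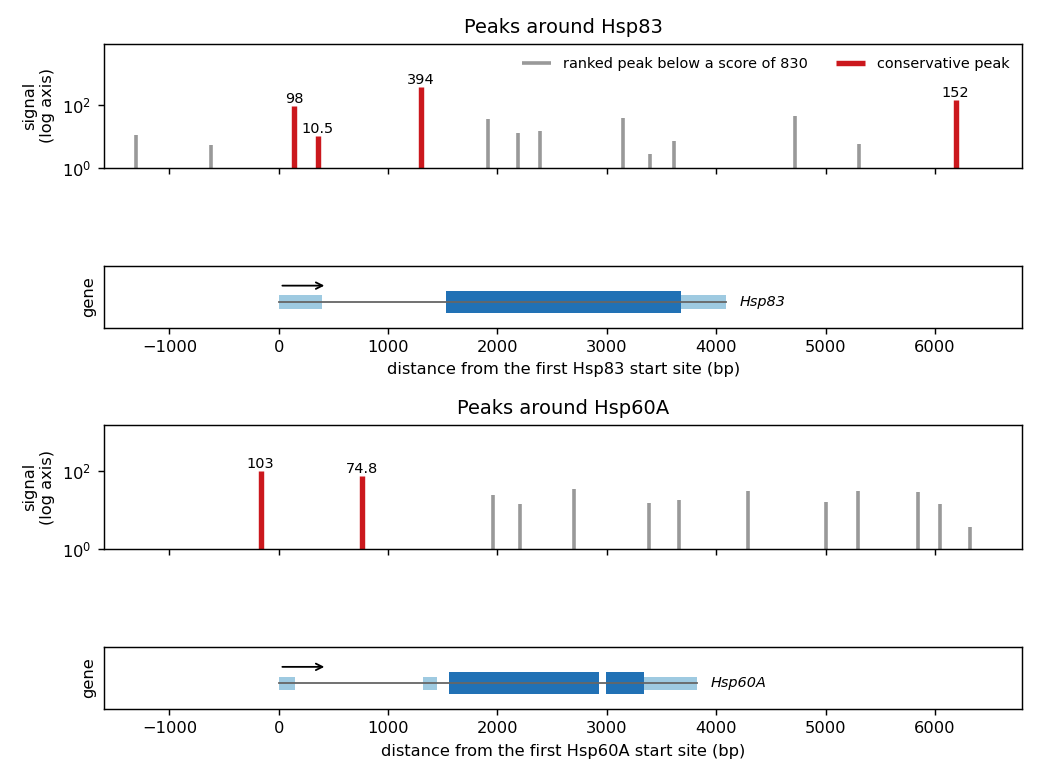
Signal of conservative peaks (red, with values) and of ranked peaks below a score of 830 (grey) around Hsp83 and Hsp60A, in the authors' units on a log axis, against the distance in bp from the first annotated start site. Gene models are drawn as dark coding blocks and light blocks for other exon sequence, with a line through the introns. The largest Hsp83 peak, at 394.3, lies in the intron, and both Hsp60A peaks are weaker than the list median of 126.9.

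Hsp60A (FBgn0015245, X from 11108482 to 11112308, plus strand) encodes the mitochondrial chaperonin that folds imported proteins. It is the only member on the X chromosome, and 2 conservative summits flank its outer TSS. The upstream summit, at 11108318, lay 164 bp before that TSS. Its peak spans 11108148 to 11108487 and had a signal of 102.9 and a rank of 3284. Replicate 1 alone gave a signal of 49.36 (rank 3929, score 994), and replicate 2 alone gave 56.46 (rank 2610). Both called it, and it is the only matched member summit with a higher value in the list of replicate 2. The intron summit, at 11109242, lay 760 bp downstream of the outer TSS and 561 bp upstream of the inner TSS at 11109803, with a signal of 74.77, a rank of 4357 and a score of 995. It was below the threshold in each replicate alone, with a signal of 42.97 and a score of 490 in replicate 1 and a signal of 33.31 and a score of 81 in replicate 2. A score of 995 was the lowest of any conservative summit at a member.

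Hsf (FBgn0001222, 2R from 18130303 to 18134634, minus strand), which encodes the heat shock transcription factor, had no conservative summit within 1000 bp. The nearest was 7229 bp upstream of its start, in an intron of the poly(A)-binding protein gene pAbp and 488 bp from a pAbp TSS, with a signal of 361.9. That distance is close to the median of 7026 bp over all protein-coding genes (interquartile range 1678 to 17701 bp). In the ranked list the largest Hsf signal was 31.67, at 787 bp downstream of the start with a score of 55. Replicate 2 had a signal of 29.08 at 790 bp downstream with a score of 162, and replicate 1 had no ranked summit within 1000 bp.

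Over the 10 genes the median distance to the nearest conservative summit was 533 bp, with a range from 101 to 7229 bp. Of the 6 occupied genes, Hsp26, Hsp27 and Hsp60A had their nearest summit upstream of the nearest start, as did Hsp22 and Hsp83 by their inner start, and Hsp67Bb had its nearest summit downstream. Signals covered a wide range. The strongest summit within 1000 bp had a signal of 1131 for Hsp27, 200.8 for Hsp26, 191.7 for Hsp22 and Hsp67Bb, 102.9 for Hsp60A and 97.95 for Hsp83. Over all 2940 occupied genes the median of that value was 171.5 (interquartile range 106.1 to 305.1). Hsp27 thus lay above the upper quartile, Hsp26, Hsp22 and Hsp67Bb between the quartiles, and Hsp60A and Hsp83 below the lower quartile.

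**Figure D3:**
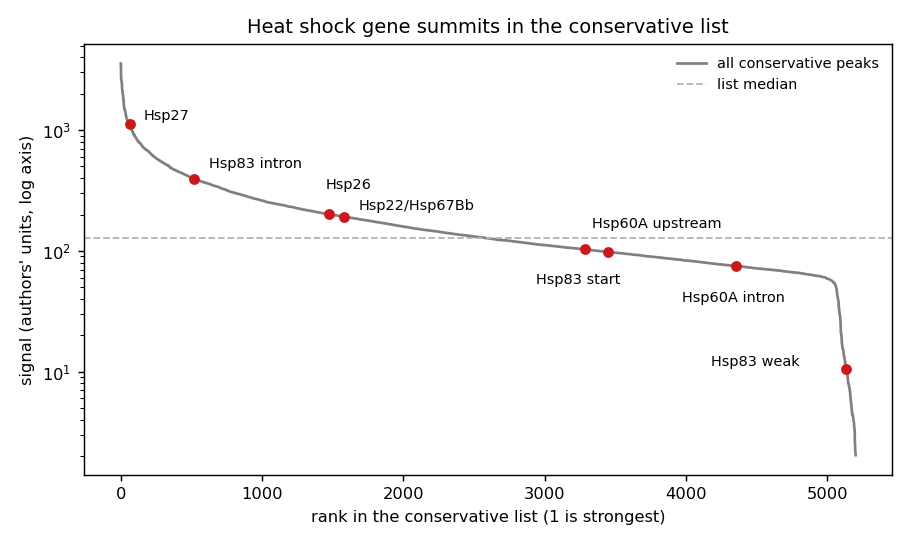
Signal of every peak of the conservative list, in the authors' units on a log axis, against its rank, with the 8 summits at the members in red and the list median of 126.9 as a dashed line. Hsp27 lies at rank 63 near the left end, the Hsp83 intron at 522, and the weak second Hsp83 summit at 5134 on the steep fall at the right end.

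Of the 8 summits at the members, the 3 weakest lacked a call in the thresholded list of at least 1 replicate, and the other 5 were called in both. In replicate 1's own list 6 of the 10 genes were occupied, against 20.6% of all protein-coding genes, and in replicate 2's own list 5 were, against 16.1%. The strongest conservative summit of 5 members (Hsp22, Hsp26, Hsp27, Hsp67Bb and Hsp60A) had a summit within 100 bp in both thresholded lists. Hsp22 and Hsp67Bb count through the same summit. The share of all conservative peaks called in both thresholded lists was not computed. Those lists hold 4751 and 3485 peaks, far fewer than the ranked lists of the replicates, to which the next share belongs. Across the arms, 4847 of 5133 conservative peaks (94.4%) had a ranked summit of both replicates within 100 bp, and the ratio of their signals, replicate 1 to replicate 2, had a median of 1.19 (interquartile range 1.00 to 1.43). The lists need not share a scale, so a member's ratio is read against that range. It was 1.05 for Hsp27, 1.24 for the Hsp83 intron, 1.29 for the Hsp60A intron and 1.41 for Hsp22, all inside the range. Outside it were the Hsp83 start at 2.12, Hsp26 at 1.60 and the upstream Hsp60A summit at 0.874.

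**Figure D4:**
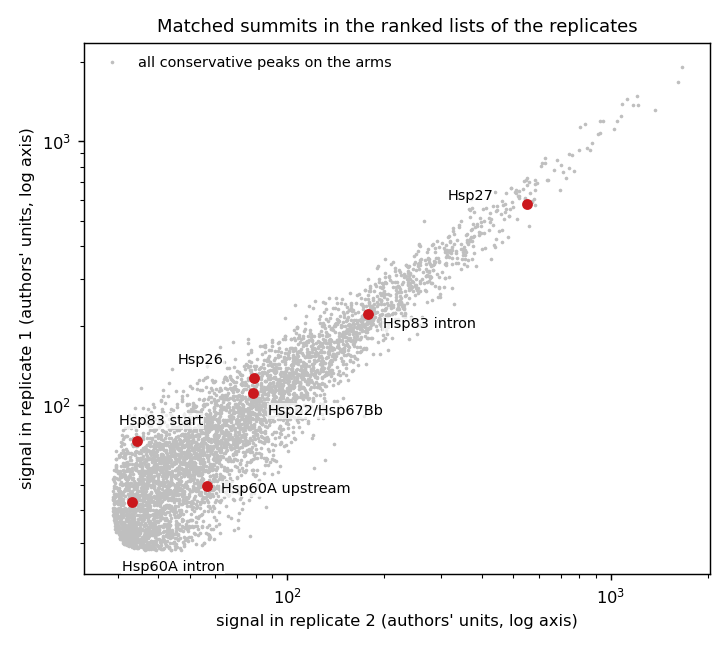
Signal in replicate 1 against signal in replicate 2, both in the authors' units on log axes, from the ranked list of each. Grey points are the 4847 conservative peaks on the arms with a summit within 100 bp in both lists, and red points are the member summits. Hsp27 lies near the upper end with 579.5 and 549.8, and the Hsp83 start lies toward the replicate 1 side with 72.8 and 34.37.

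Sequence was compared next, as letters and not as sites. Both orders of an inverted GAA pair, GAANNTTC and TTCNNGAA, were searched on both strands, and a match need not be bound by Hsf. Within 100 bp of a summit 517 of 5133 conservative peaks on the arms (10.1%) held such a pair. Among the 9 summits in or within 3000 bp of a member gene, those of Hsp26 and the Hsp83 start held a pair, 20 and 36 bp from the summit, and both are printed above. The Hsp83 pair began 68 bp before the inner TSS, and the Hsp26 pair 128 bp before the outer TSS. The windows around the Hsp27, Hsp22 and Hsp60A summits and the Hsp83 intron summit held none.

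Promoters, taken as 250 bp before to 50 bp after the outermost start, held a pair in 2220 of 13945 protein-coding genes (15.9%). Among the members 4 of 10 did: Hsp26 with 3 pairs, Hsp23 with 2, and Hsp67Bb and Hsp67Bc with 1 each. The pair of Hsp67Bb, 113 bp before its start, and that of Hsp67Bc, 119 bp before its start, are the same bases. These genes are transcribed away from each other, so that pair is counted for both. A promoter with at least 3 pairs, the number held by Hsp26, was found for 26 genes (0.186%). One of the 3 Hsp26 pairs begins 3 bp after the start, and in the 250 bp before the start alone Hsp26 held 2. With every annotated start searched, an alternative added after the first count had been seen, 7 of 10 members held a pair against 19.9% of genes. The genes added were Hsp22, Hsp60A and Hsp83, whose inner starts carry the pairs. With a window from 500 bp before to 50 bp after the outermost start, 8 of 10 did against 27.3%. In that window Hsp22 counts through the same pair that Hsp67Bb and Hsp67Bc share. Hsp23 and Hsp67Bc therefore had heat shock element pairs beside their start and no conservative summit, and Hsp27 had the strongest summit of the set with no pair in the shorter window.

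GAGAG, the core of the GAGA factor site, was found within 100 bp of 21.8% of conservative summits on the arms and in 29.7% of promoters. The promoter windows are longer than the summit windows, so these shares cannot be compared with each other. Only the Hsp26 summit of the 9 held it, with 6 matches, some of them overlapping, 37 to 70 bp from the summit and between the summit and the gene. In promoters it was found for Hsp22, Hsp23 and Hsp26. The TATA box word TATAAA, found in 45.8% of promoters, was in 8 of 10 members. These are not separate words, since Hsp22, Hsp67Bb and Hsp67Bc count through shared bases. Hsp60A and Hsp83 count through words 117 and 148 bp before the outer start. The word began 27 to 30 bp before the start for Hsp23, Hsp27, Hsp67Bc and the inner starts of Hsp22, Hsp26 and Hsp83. For Hsp22 and Hsp83 that inner start is also the one nearer to the summit, and for Hsp26 it is the farther one.

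Words that bZIP proteins are known to bind were not found within 100 bp of these summits. TGANTCA was in none of the 9 against 4.79% of all summit windows, TGACGTCA in none against 0.273%, and TTGCNCAA in none against 2.73%. With shares this low, 9 windows are too few for these absences to set the member summits apart. In promoters TTGCNCAA was found for 1 member, Hsp83, 18 bp after the outer TSS and inside the peak at the Hsp83 start, and in 4.82% of all promoters, and the other bZIP words for no member. CACGTG (1.79%) and the Zelda word CAGGTAG (0.877%) were in none of the 9 either. TATCGATA, the DNA replication-related element, was in the Hsp83 promoter 182 bp before the outer TSS and in 9.36% of all promoters. GGTCACAC, bound by the promoter factor M1BP, began 12 bp before the outer Hsp60A TSS and was in 7.70% of promoters. GC content within 100 bp of the summit had a median of 35.8% over all summits (interquartile range 31.3 to 40.8%). It was below that range at the summit of Hsp22 and Hsp67Bb (27.9%), upstream of Hsp60A (28.9%) and in the Hsp83 intron (29.4%). Values above it were 42.8% in the Hsp60A intron and 46.8% at the Hsp83 start. Inside it were Hsp27 (38.8%), Hsp26 (31.8%), the second Hsp83 summit (32.8%) and the summit inside gry (32.3%).

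Other chaperone genes were counted in 5 lists of 49 genes in all, of which 11 (22.4%) were occupied, against 21.1% of all protein-coding genes. The lists were chosen with earlier results of these data known. Small heat shock protein genes outside the set gave 1 of 5, namely CG13133, with a signal of 110.7 at 688 bp upstream and a call in the list of replicate 2 but not of replicate 1. CG4461, inside the cluster, was not occupied, with its nearest summit 1923 bp away, and CG14207 missed the limit at 1029 bp. The Hsp70 family gave 2 of 13, both constitutive: Hsc70-4, the main cytosolic Hsc70 (signal 368.2, 177 bp upstream, shared with tefu), and the mitochondrial Hsc70-5 (272.0, 18 bp upstream, shared with CG8531). None of the 6 heat-inducible Hsp70 copies or Hsp68 was occupied. Those copies are near identical, and the sources used here do not say how reads that match several of them were treated.

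J-domain cochaperones, which pass substrates to Hsp70, gave 4 of 10. These were mrj (signal 678.5, 297 bp upstream), DnaJ-H (225.3, 136 bp upstream, shared with Sirt1), P58IPK (156.7, 51 bp upstream) and Droj2 (99.19, 234 bp upstream, shared with mRpS21). Droj2 was called in the list of neither replicate. Chaperonins gave 2 of 11, CCT8 (230.2) and CCT3 (116.0), subunits of the cytosolic chaperonin, whose summits are shared with CG30349 and CG10324. None of the Hsp60A paralogs Hsp60B, Hsp60C and Hsp60D was occupied. Hsp90 paralogs and cochaperones gave 2 of 10. They were stv, which encodes the cochaperone Starvin (269.9, 536 bp upstream), and Gp93, the Hsp90 of the endoplasmic reticulum (124.7, 132 bp upstream, shared with mfrn, called in replicate 1 alone). Of these lists only the J-domain list had a share above that of all genes, and none was tested.

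**Figure D5:**
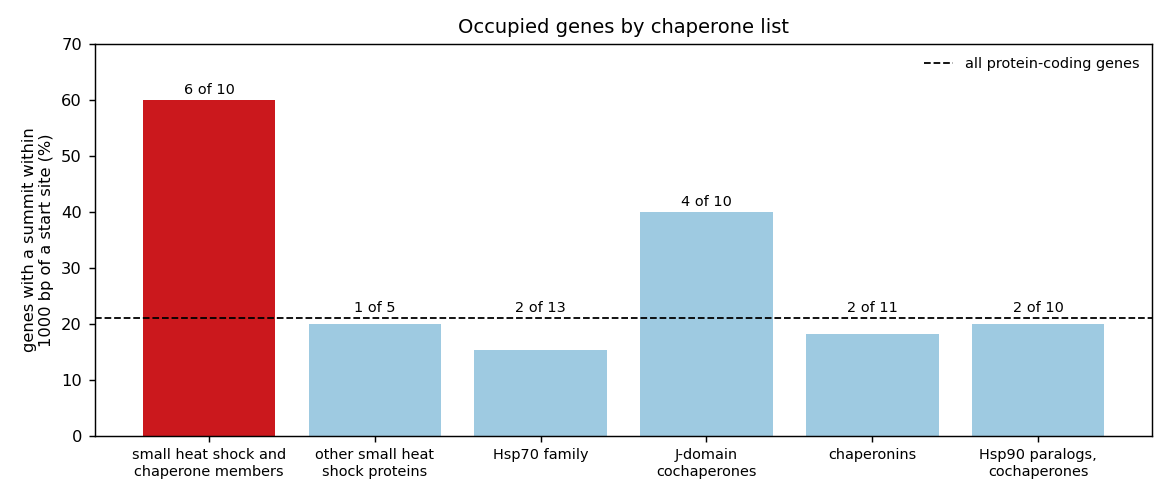
Percent of genes with a conservative summit within 1000 bp of a start site, for the 10 heat shock genes (red) and 5 lists of other chaperones (blue), with the number of occupied genes above each bar and the 21.1% of all protein-coding genes as a dashed line. The red bar stands for 6 of 10 genes chosen with their peaks known, and the blue bars run from 15.4% to 40.0%.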

How the data were processed

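Per the labels, ChIP-seq was done on 2 biological replicates of whole sisA-eGFP embryos, and p-values were not computed because there is 1 group. The authors deposited peak lists on dm6. Per the file listings, the conservative list (5202 peaks) and a longer one (5643) derive from both replicates, and lists of 4751 and 3485 peaks derive from replicates 1 and 2. Ranked lists of 101511 to 120515 peaks precede thresholding. Signal is the value that the authors' caller gave a peak, and its normalization is not stated. The score is the authors' whole number from the IDR. The summit offset, deposited by the authors, is in bp. The sources used here name no peak caller or aligner and do not say how duplicate or multiply matching reads were handled. In the ranked lists 16 columns of values for single inputs were not used, because they do not name a replicate. Replicate values come from each replicate's own lists.

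Genes came from Ensembl release 115 (BDGP 6.54), and sequence from the RefSeq copy of dm6, after arm names and lengths had been compared. In all 59 listed symbols were found, 5 of them through synonyms. Coordinates are 1-based. Summits were matched between lists within 100 bp. Searches for 11 motifs used both strands. The search for motifs and summits was tested on simulated data. Alternatives were distances of 500 or 2000 bp, other lists, peaks above the median signal, any base of a peak, single starts, matches within 50 or 200 bp, and other promoter windows. The text names every member, every gene sharing a member summit or inside the cluster, and up to 5 occupied genes of each other list. CG32276, gry, pAbp, CG14207, the Hsp60A paralogs and the Hsp70 genes were named after their values had been seen. The members and lists were chosen with earlier results of these data known. Python 3.11.15, numpy 2.4.6, pandas 2.3.3 and matplotlib 3.10.9 were used. Control libraries were not used here, and depth is unknown, so counting intervals could not be given.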

Additional observations from a re-analysis of the deposited data

How the results depend on the processing

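The count of 6 occupied members stayed between 4 and 7 over 8 alternatives, within 1.5 times of the value reported. It was 5 at 500 bp (17.8% of all genes), 7 at 2000 bp (26.9%), 6 with the longer list (22.3%), 4 for peaks above the median signal (13.9%, without Hsp60A and Hsp83), 7 with any base of a peak (22.0%) and 6 with the outermost start only (19.2%). With 1 replicate left out it ranged from 5 to 6. The count of 11 other chaperone genes ranged from 9 to 16, except that it fell to 7 for peaks above the median signal, and was 9 with either replicate left out. The median percentile of 69.6 was 48.7 without replicate 1, where Hsp83 is not called, 68.2 without replicate 2 and 71.8 with the longer list. The median distance of 533 bp ranged from 533 bp without replicate 2 to 798 bp without replicate 1. Members with a heat shock element pair in the promoter numbered 4, 8 with the window from 500 bp before to 50 bp after, and 7 with every annotated start, an alternative added after seeing the data. Both alternatives search more sequence per gene. Of 57 values for single members under these alternatives 34 moved by less than the spread between the replicates and 23 were counted as moved. The latter include the percentiles of Hsp83, which has none in replicate 2 and so no spread. Values with 1 replicate left out are among the 57 and also set that spread, so this split is a description. For distance the spread was narrow at Hsp22 (486 and 485 bp) and wide at Hsp83 (120 and 1037 bp). No paired analysis was possible because there is 1 group. The depth of the libraries is unknown, and no control library was used, so weak peaks such as the second Hsp83 summit cannot be set against background.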

Other observations

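The word ATTTGCAT was noticed while the printed windows were read, and was then counted. It lay within 100 bp of 4 of the 9 summits in or near the members, 8 bp from the Hsp27 summit, 47 bp from the upstream Hsp60A summit, 60 bp from the Hsp83 intron summit and 50 bp from the second Hsp83 summit. Over all 5133 conservative summits on the arms 2.81% of windows held it on either strand, against 2.94% and 3.57% of windows centred 500 bp to the right and left. The word was thus no more common at summits than beside them over the whole list. It was picked for its presence in these windows, so its count at the members carries no weight of its own.

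Some occupied members also had ranked peaks below the threshold close to their starts. Hsp22 had 1 at 520 bp downstream of its inner start with a signal of 47.58 and a score of 80, and Hsp27 had 1 at 464 bp downstream with a signal of 41.85 and a score of 275. Both values were higher than those of any ranked peak within 1000 bp of Hsp23, Hsp67Ba, Hsp67Bc or Hsf in the same list, the largest of which was 31.67 at Hsf. The other occupied members stayed under 31.67, with at most 27.94 for Hsp26, 25.36 for Hsp67Bb, 23.86 for Hsp60A and 5.591 for Hsp83. In replicate 1 Hsp27 had 25.42, but Hsp22 had 13.51 against 15.05 for Hsp67Ba. In replicate 2 Hsp22 (27.14) and Hsp27 (19.81) were both under Hsf (29.08).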
